A study of Mus musculus with 6 samples.

Results

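The genes of the proteasome were followed in whole testes of 21-day-old mice. The comparison was of 3 samples labelled Nxf2 knockout (KO) with 3 labelled wild type (WT), each on its own 1-colour Affymetrix array. A gene was included if a probe set carried its symbol alone and the symbol was Psm, a letter from a to g and digits. This gave 47 genes of the 18193 with such a probe set, each represented by its brightest probe set over the 6 arrays. Psme2 did not enter, because its probe set carries a second symbol. Of the 47 genes, 46 passed the limit for dim probe sets, a mean signal of 20.5, and the thymus subunit gene Psmb11 did not. Nxf2 is an X-linked germ cell relative of the general mRNA export receptor. Both groups were whole testes of the same age. The labels give neither strain, nor the structure of the Nxf2 allele, nor the number of animals per sample. The p-values therefore refer only to the scatter among these arrays, part of which may be technical. The submitters describe the arrays as 3 pairs of knockout and wild-type testes.

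The proteasome degrades proteins tagged with ubiquitin. Its core particle is a barrel of alpha rings, which gate the entrance, around beta rings, which carry the peptide-cutting sites. The regulatory particle on top consists of a base, whose ATPases unfold the substrate, and a lid, which removes the ubiquitin chain. Immune cells and cells exposed to interferon exchange the cutting subunits for the immune subunits Psmb8, Psmb9 and Psmb10, which favour peptides for MHC class I. Male germ cells exchange the alpha subunit Psma7 for Psma8 from meiosis onwards, and the activator Psme4 serves the breakdown of acetylated histones in spermatids.

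Of the 47 genes, 39 had a promoter window in the RefSeq table of GRCm38.p6, reaching from 250 bases before to 50 after the transcription start. The windows were searched on both strands for 6 motifs, and different motifs did not overlap in any of them. The antioxidant response element TGACNNNGC, through which Nfe2l1 raises proteasome genes when proteasomes are inhibited, was in 6 of the 39 (15.4%) and in 14% of all 27025 genes with a window. The palindrome bound by the respiratory factor NRF1 was in 7 (17.9%, against 5.19%), and the ETS site CCGGAAGT in 9 (23.1%, against 4.31%). The interferon-stimulated response element was in 5 (12.8%, against 3.99%), the gamma-activated site TTCNNNGAA in 3 (7.69%, against 9.55%) and the CCAAT box CCAAT in 14 (35.9%, against 41.1%). A gene with several windows counted once. A match is a description of the letters and not a measured binding site.

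The sites below are examples of the antioxidant response element, the palindrome and the ETS site, each found in a minority of the 39 genes and the first at about the share of all genes, with the motif in capitals and up to 10 bases on each side. The first pair holds the antioxidant response element, in genes of cutting subunits of the core. The next 3 hold the palindrome and the last 3 the ETS site.
Psmb5, chr14:54618024-54618052, minus strand: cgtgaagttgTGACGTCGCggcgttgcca
Psmb6, chr11:70525338-70525366, plus strand: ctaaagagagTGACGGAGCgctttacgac
Psma4, chr9:54950788-54950817, plus strand: tcgcagtcctGCGCACGCGCgggagccata
Psmc4, chr7:28050242-28050271, minus strand: aagagttactGCGCACGCGCaacatccttg
Psmd14, chr2:61711604-61711633, minus strand: ggagcacacaGCGCACGCGCaggccgcctg
Psmc1, chr12:100110163-100110190, minus strand: atcgccaccgCCGGAAGTgcatccacca
Psmd6, chr14:14120973-14121000, minus strand: agagacgcgaCCGGAAGTcagactggcg
Psme4, chr11:30771712-30771739, plus strand: tggccccgccCCGGAAGTgacttgaggc

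The upstream sequences of the immune subunit genes and of Psme1 are shown because Psmb10 and Psme1, the 2 proteasome genes that rose in KO, are among them. Each is the 250 bases before the start in GRCm38.p6, read towards the gene, with matches to the 6 motifs in capitals.
Psmb8, chr17:34197945-34198194, plus strand: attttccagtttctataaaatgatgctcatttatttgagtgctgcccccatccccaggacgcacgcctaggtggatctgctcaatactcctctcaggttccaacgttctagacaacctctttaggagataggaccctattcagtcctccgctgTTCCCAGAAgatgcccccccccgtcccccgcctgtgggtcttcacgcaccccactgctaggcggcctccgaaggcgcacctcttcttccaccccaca
Psmb9, chr17:34187331-34187580, minus strand: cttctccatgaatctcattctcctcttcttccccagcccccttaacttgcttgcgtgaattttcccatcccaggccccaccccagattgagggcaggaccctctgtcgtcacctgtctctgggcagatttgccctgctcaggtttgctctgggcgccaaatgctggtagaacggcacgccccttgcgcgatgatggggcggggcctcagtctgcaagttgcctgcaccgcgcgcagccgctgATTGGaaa
Psmb10, chr8:105938393-105938642, minus strand: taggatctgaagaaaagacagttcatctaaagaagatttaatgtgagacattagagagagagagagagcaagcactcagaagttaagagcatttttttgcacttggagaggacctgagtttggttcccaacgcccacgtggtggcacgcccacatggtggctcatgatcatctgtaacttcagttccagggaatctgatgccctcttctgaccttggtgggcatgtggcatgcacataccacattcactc
Psme1, chr14:55578244-55578493, plus strand: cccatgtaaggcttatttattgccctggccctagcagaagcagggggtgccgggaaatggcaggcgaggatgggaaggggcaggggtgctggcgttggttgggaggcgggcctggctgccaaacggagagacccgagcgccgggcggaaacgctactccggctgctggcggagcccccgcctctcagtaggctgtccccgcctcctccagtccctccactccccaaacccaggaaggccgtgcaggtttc
The capitals mark a gamma-activated site in Psmb8 and a CCAAT box, on the opposite strand, in Psmb9. The starts of Psmb9 and of the peptide transporter gene Tap1 lie 226 bases apart on opposite strands of chromosome 17, so their windows overlap by 275 bases. The interferon-stimulated response element of Psme1 begins 10 bases after its start and is printed here with its flanks.
Psme1, chr14:55578493-55578522, minus strand: agcgggaaggGAAAGCGAAAgcacagctcg

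Every array had a mean signal of 150.0 without the lowest and highest 2% of values, and the median signals were 37.1 to 40.9. The Nxf2 probe set had signals of 106.2 to 130.8 on the KO arrays and 340.4 to 385.9 on the WT arrays, so each array went with its label (limma, adjusted p = 0.000488). As a sign of RNA quality, the Actb controls gave 3′/5′ ratios of 1.77 to 2.08 in KO and 1.92 to 2.19 in WT. All 10 pachytene spermatocyte markers and 11 of 12 Sertoli cell markers were tested, with signals of at least 243.1 and 92.5. Some marker lists moved with the genotype. The median log2 fold change, KO minus WT, was -0.96 for 12 round spermatid markers (11 fell), -0.22 for 10 pachytene markers (5 fell), 0.25 for 11 Sertoli markers (4 rose) and 0.49 for 16 macrophage and immune markers (none passed, 8 at an unadjusted p under 0.05). Of the round spermatid markers, Actl7a, Catsper1, Sun5 and Tssk2 passed the dim limit only through WT (KO means 12.8, 7.71, 9.01 and 15.1). That list's median and count therefore describe the arrays and are no support for a fall. Among all tested genes, 2.98% rose, 7.37% fell and 34.9% had an unadjusted p under 0.05 (limma). In whole testis, fewer cells of a type and less RNA per cell cannot be told apart.

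Proteasome genes differed little between the genotypes. Of the 46 tested, 2 rose in KO and none fell (limma, Benjamini-Hochberg adjusted p under 0.05 over 27022 probe sets). Among all 12971 tested genes 2.98% rose and 7.37% fell, and 10.3% were called in either direction, against 4.35% of the proteasome genes. At an unadjusted p under 0.05, 5 proteasome genes were higher and 4 lower, or 19.6% together, against 34.9% of all genes. The KO values lay all above the WT values in 7 genes (15.2%, against 21.5% of all genes) and all below in 4 (8.70%, against 18.3%). The counts of higher genes, 5 and 7, include Psmb8, which passed the dim limit only through KO. The median log2 fold change was 0.02 over the proteasome genes and 0.04 over all genes, and the median absolute value was 0.06 against 0.16. Their signals were also measured more tightly, with a median standard error (SE) of 0.057 against 0.099 on the log2 scale. Means were higher in KO for 29 of the 46 genes (56.9% of all genes), but for 13 after each array was centred on its median, so no common direction can be read from them. Of the 22 genes with more than 1 tested probe set, 15 had the same sign in all of them. Counted by probe set, 89 of the 100 were tested, 2 rose and 2 fell, while 7.49% of all tested probe sets were called (2.26% rose, 5.23% fell).

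**Figure D1:**
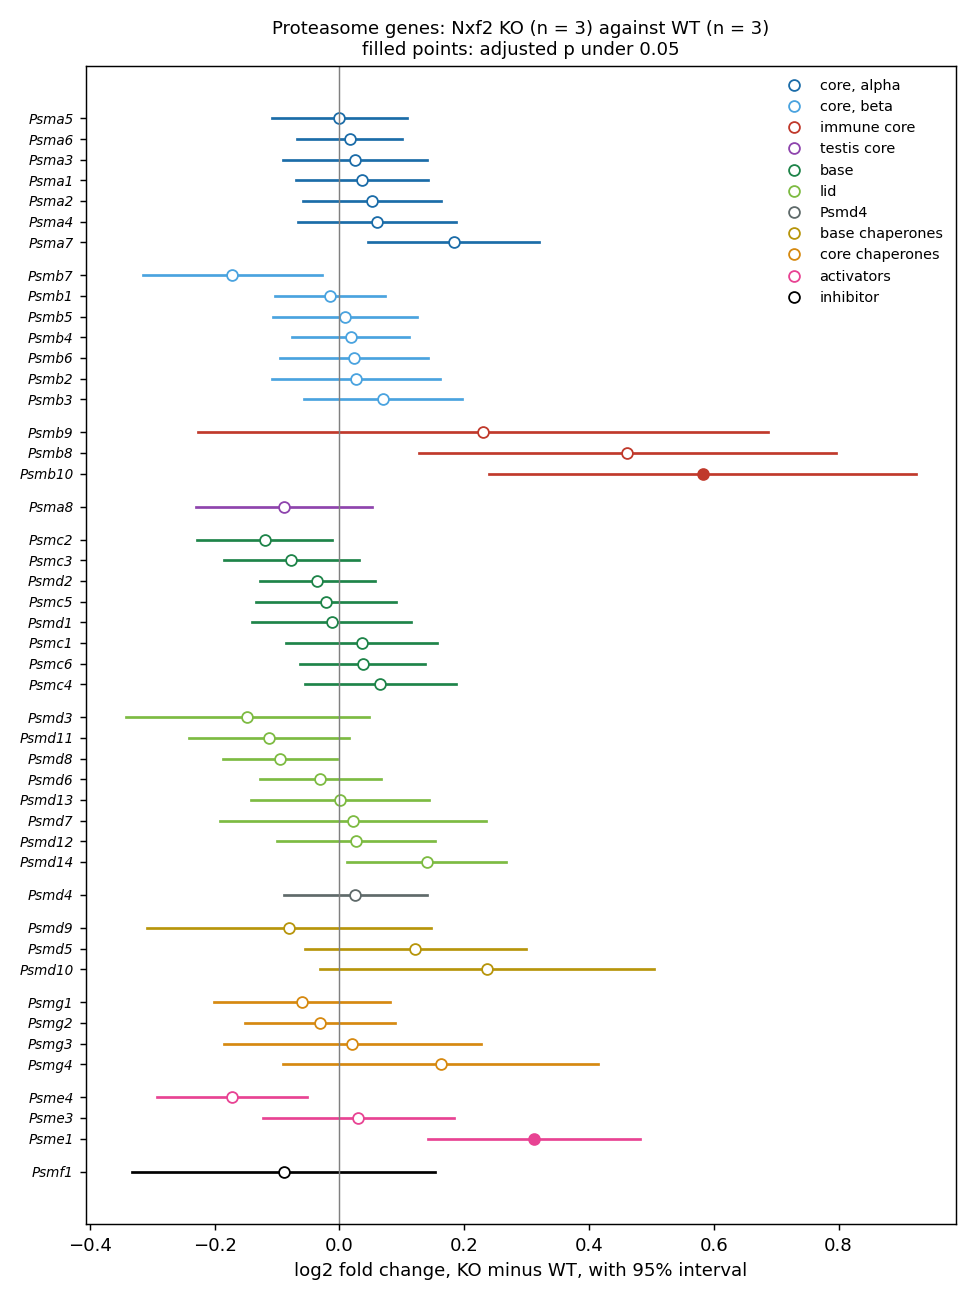
Log2 fold change, KO minus WT, of the 46 tested proteasome genes with 95% intervals from the fit, grouped by role (3 arrays per genotype). The points of 41 genes (89.1%, against 58.7% of all genes) lie within 0.2 of 0 on the log2 scale. The filled points, Psmb10 and Psme1, are the 2 genes past the threshold. Psmb8 passed the dim limit only through KO.

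The alpha rings of the core showed no called change in the main fit, which did not pair the arrays. The 7 alpha genes had log2 fold changes of 0.00 to 0.18, with intervals reaching from -0.11 to 0.32, and the median was 0.04 (-0.01 after median centring). Psma7, the alpha subunit that Psma8 replaces in germ cells, had signals of 958.7, 840.4 and 935.7 in KO and 843.1, 781.6 and 779.7 in WT. KO replicates 1 and 3 lay above all WT arrays, and KO replicate 2 lay just under WT replicate 1. The log2 fold change was 0.18 ± 0.062 (SE, limma, adjusted p = 0.0946), and its second probe set had 0.20 (adjusted p = 0.0819). With the replicate number as a block Psma7 was called higher, in a fit that called 21.9% of all genes. Psma4, a gate-lining alpha subunit, had 729.0, 725.3 and 781.5 in KO and 729.2, 734.6 and 679.8 in WT. Its groups overlapped, and the log2 fold change was 0.06, with an interval of -0.07 to 0.19. Psma2 had 782.1, 776.7 and 781.8 in KO and 756.6, 775.6 and 725.9 in WT. Its KO arrays all lay above the WT arrays, though by little, and the interval of its log2 fold change was -0.06 to 0.16.

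By their brightest probe sets the beta rings were likewise flat, apart from a lower mean of a cutting subunit. The 7 constitutive beta genes had log2 fold changes of -0.17 to 0.07, with a median of 0.02 (-0.03 after median centring). Psmb7, which carries the trypsin-like site, had signals of 1292.9, 1367.1 and 1189.3 in KO and 1419.0, 1566.4 and 1354.0 in WT. Only KO replicate 2 reached into the WT range. The log2 fold change was -0.17 ± 0.064 (SE, limma, adjusted p = 0.121), with an interval of -0.32 to -0.03. With the replicate number as a block Psmb7 was called lower, in a fit that called 21.9% of all genes. Psmb5, the chymotrypsin-like subunit and main target of proteasome inhibitors, had 680.0, 686.5 and 660.9 in KO and 667.4, 690.2 and 656.4 in WT. Its log2 fold change was 0.01, with an interval of -0.11 to 0.13, so a change of the size seen for Psmb10 lies outside it. Psmb6, the caspase-like subunit, had a log2 fold change of 0.02 (-0.10 to 0.14). Psmb3, a structural subunit, had 838.7, 856.9 and 924.6 in KO and 869.2, 830.5 and 794.4 in WT, and Psmb2 had 438.5, 434.3 and 457.9 in KO and 435.9, 434.5 and 435.6 in WT. The groups overlapped in both genes, and their adjusted p values were 0.439 and 0.804 (limma). The second probe set of Psmb3 had 699.8, 713.5 and 759.1 in KO and 646.0, 663.7 and 495.4 in WT. There the groups did not overlap, KO being higher (log2 fold change 0.28, adjusted p = 0.111).

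The testis subunit did not pass the test. Psma8, the alpha subunit of meiotic and postmeiotic germ cells, had signals of 1130.8, 1112.8 and 962.7 in KO and 1117.5, 1176.7 and 1109.9 in WT. KO replicate 3 was the lowest array, and the other KO arrays lay within the WT range. The log2 fold change was -0.09 ± 0.063 (SE, limma, adjusted p = 0.378), with an interval of -0.23 to 0.05. Against the WT mean, the median of the 10 pachytene markers was -0.11, -0.21 and -0.37 in KO replicates 1, 2 and 3, and lay between -0.02 and 0.03 in WT. Their summed signal was 8254 to 9642 in KO and 10237 to 10598 in WT, and none was at 0. On the same scale Psma8 deviated by 0.00, -0.03 and -0.24. Whether the pachytene shift has a part in the Psma8 value was not tested. Within each array the log2 ratio of Psma8 to Psma7 was 0.24, 0.40 and 0.04 in KO and 0.40, 0.59 and 0.51 in WT. All KO values lay below all WT values, narrowly in KO replicate 2. The difference of -0.27 had an exact permutation p of 0.10, the smallest that 3 against 3 arrays allow (two-sided, not adjusted for the other ratios compared).

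Among the tested core genes the immune subunit Psmb10 had the largest log2 fold change, and no other core gene was called. Psmb10, which takes the place of Psmb7, rose from 195.7, 169.4 and 209.9 in WT to 247.9, 256.4 and 380.6 in KO. The groups did not overlap, and KO replicate 3 stood far above the other KO arrays. The rise was 1.5-fold, a log2 fold change of 0.58 ± 0.154 (SE, limma, adjusted p = 0.0483). The adjusted p was close to the threshold, and the call was lost after quantile normalization (0.0504), with a pseudocount of 39 (0.0508), with averaged probe sets (0.0512), without the dim filter (0.102) and without the trend (0.105). It was also lost without KO replicate 2, KO replicate 3, WT replicate 1, WT replicate 2 or WT replicate 3 (adjusted p 0.058 to 0.136) and kept without KO replicate 1, and without KO replicate 3 the log2 fold change was 0.39. Psmb8, which takes the place of Psmb5, had dim signals of 24.7, 22.2 and 29.3 in KO and 16.1, 15.1 and 18.3 in WT. All KO arrays were higher, but the gene passed the dim limit only through them, since its mean was 25.4 in KO and 16.5 in WT. Its log2 fold change was 0.46 ± 0.150 (SE), given without a p-value for that reason. Psmb9, which takes the place of Psmb6, had 21.2, 31.1 and 37.8 in KO and 24.7, 18.3 and 30.1 in WT. Here the groups overlapped, and the interval of the log2 fold change, -0.23 to 0.69, was wide.

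Within arrays, the log2 ratio of Psmb10 to Psmb7 was -2.35, -2.38 and -1.63 in KO and -2.81, -3.16 and -2.65 in WT. It was higher by 0.75 in KO, with no overlap. The ratio of Psmb9 to Psmb6 was higher by 0.21, with overlap. The exact permutation p values, not adjusted for the number of ratios, were 0.10 and 0.5, with 0.10 the smallest possible. The mean ratio of Psmb8 to Psmb5 was -4.40 in KO and -4.85 in WT, given without a p-value because Psmb8 passed the dim limit only through KO. Such ratios show unequal change of 2 probe sets, not levels of the subunits.

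**Figure D2:**
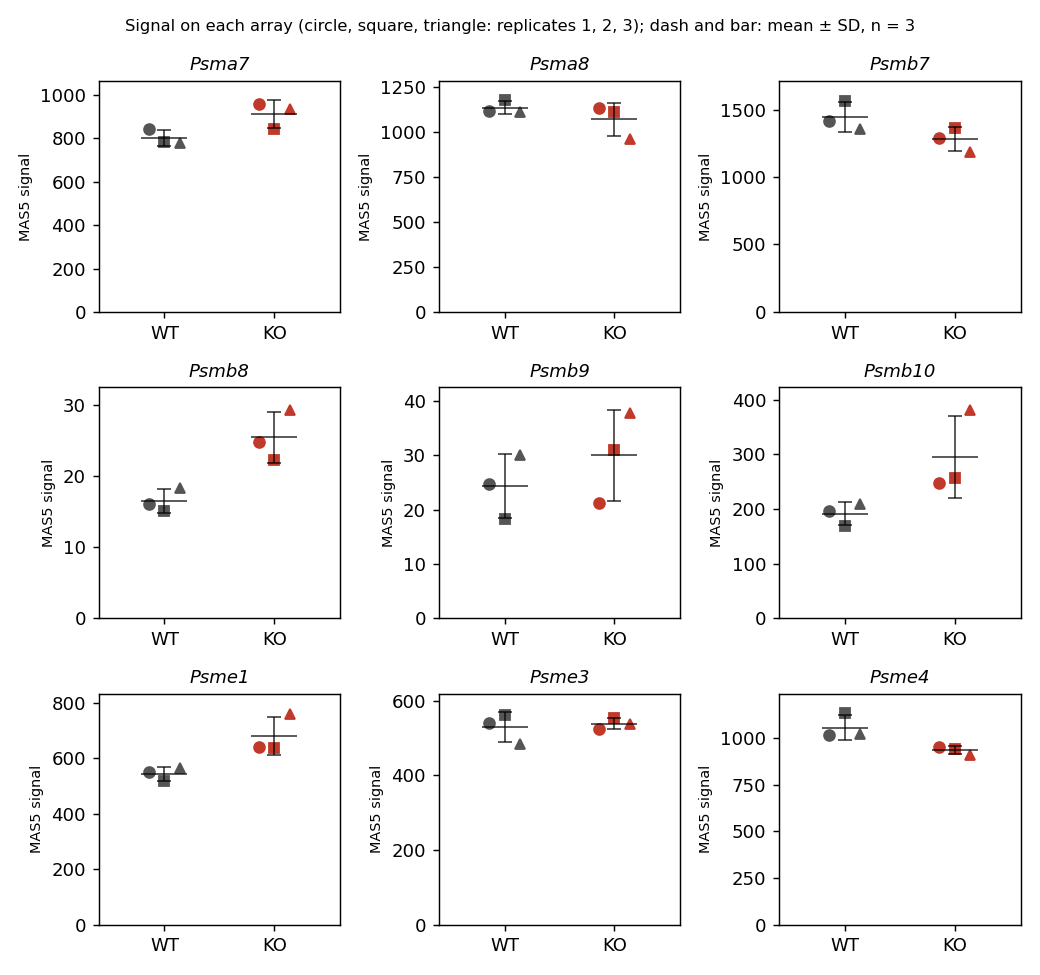
MAS5 signal of 9 proteasome genes on each array, on linear axes that start at 0, with the mean and SD of 3 arrays per genotype. Psmb10 and Psme1 separate the genotypes upwards with KO replicate 3 highest, Psme4 separates them downwards (912.7 to 953.9 in KO, 1015.6 to 1136.2 in WT), and Psma8 and Psme3 overlap.

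Several marker lists were higher in KO beside the immune subunits. Against the WT mean, the median of the 3 immune subunits was 0.36, 0.32 and 0.63 in KO replicates 1, 2 and 3 and 0.03, -0.17 and 0.13 in WT. It includes Psmb8, which passed the dim limit only through KO, so this median describes the arrays and is no support for a rise. That of the 16 macrophage and immune markers was 0.11, 0.35 and 0.92 in KO and -0.01, -0.20 and 0.25 in WT. KO replicate 3 was highest and WT replicate 2 lowest in both, but KO replicate 1 lay below WT replicate 3 for the markers. The summed signal of the markers was 2466 to 3985 in KO and 1700.1 to 2502 in WT. Of the 16, 14 had higher means in KO (56.9% of all genes), and none was at 0, the lowest signal being 16.9. Among all tested genes 2.98% rose. The 5 Leydig cell markers (2 rose, median 0.58) had medians of 0.54, 0.28 and 0.94 in KO and -0.14 to 0.07 in WT, with summed signals of 2474 to 3635 and 2054 to 2321 and none at 0. The 10 tested markers of undifferentiated spermatogonia (5 rose, median 0.30) had medians of 0.25 to 0.35 in KO and 0.01 to 0.06 in WT, with summed signals over all 11 listed of 3541 to 3588 and 2945 to 2966 and none at 0. The part of these lists in the result was not tested.

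**Figure D3:**
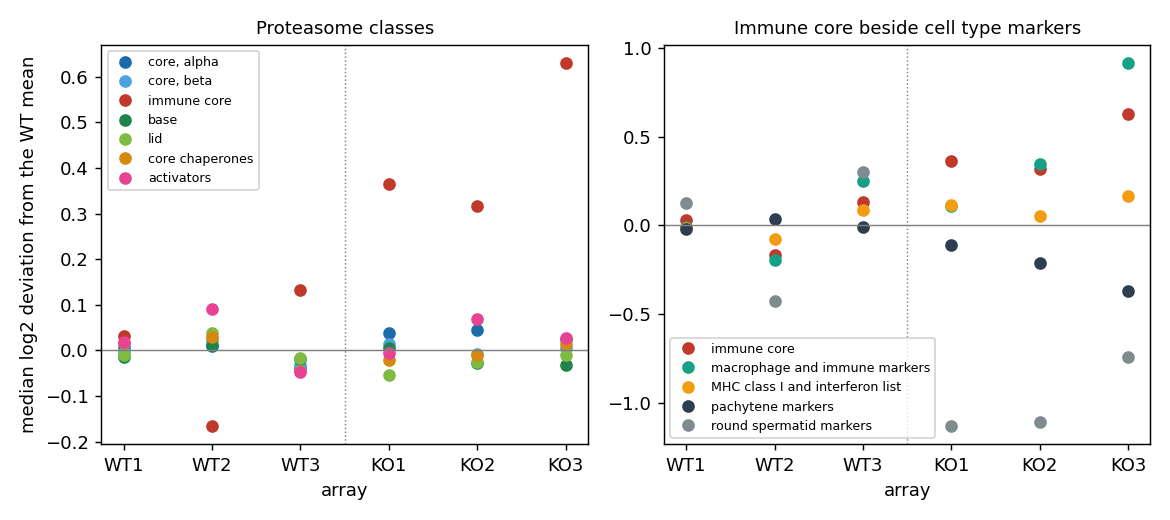
Median log2 deviation from the WT mean on each array, for proteasome classes (left) and for the immune subunits beside marker lists (right). The immune subunits reach 0.63 on KO replicate 3, where the macrophage and immune markers reach 0.92, while the alpha, beta, base and lid medians of all arrays stay within 0.1 of 0. The immune median includes Psmb8, which passed the dim limit only through KO.

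Genes of antigen processing outside the proteasome did not pass. Of 10 tested genes of a list for MHC class I and interferon response, none was called (10.3% of all genes), 2 had an unadjusted p under 0.05 (34.9% of all genes) and 8 had higher means in KO (56.9% of all genes), with a median of 0.11. Irf1, an interferon-induced activator of the immune subunit genes, had signals of 85.9, 93.5 and 103.7 in KO and 68.7, 62.8 and 74.0 in WT. The groups did not overlap, and the log2 fold change was 0.42 ± 0.122 (SE, limma, adjusted p = 0.0625). Erap1, which trims peptides in the endoplasmic reticulum, had 113.6, 97.1 and 128.3 in KO and 94.2, 65.2 and 99.0 in WT, and its groups overlapped (adjusted p = 0.164). Tap1, the neighbour of Psmb9, had 46.1, 44.6 and 60.3 in KO and 37.2, 27.9 and 58.6 in WT. Its groups overlapped too, with WT replicate 3 high in both Tap1 and Psmb9.

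Of the 3 activators, which cap the core in place of the regulatory particle, Psme1 rose and the others did not pass the test. Psme1, an interferon-inducible activator subunit, rose from 551.2, 517.6 and 566.0 in WT to 641.9, 638.2 and 759.7 in KO. The groups did not overlap, and KO replicate 3 was again highest. The rise was 1.24-fold, a log2 fold change of 0.31 ± 0.076 (SE, limma, adjusted p = 0.0378). This call, too, was lost without each array in turn (adjusted p 0.0514 to 0.127), except KO replicate 1, after median centring (adjusted p = 0.0777), without the dim filter (adjusted p = 0.0795) and without the trend (adjusted p = 0.105). Without KO replicate 3 the log2 fold change was 0.23. Psme3, a nuclear activator that is not induced by interferon, had 525.0, 553.2 and 536.9 in KO and 539.1, 561.3 and 483.4 in WT. Its KO values lay within the WT range, and its interval was -0.12 to 0.18. Its second probe set had 286.6, 291.9 and 314.7 in KO and 244.5, 258.3 and 282.3 in WT, where the groups did not overlap (log2 fold change 0.18, adjusted p = 0.182).

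Psme4, the activator of acetylated histone breakdown in germ cells, had signals of 953.9, 944.6 and 912.7 in KO and 1015.6, 1136.2 and 1021.9 in WT. All KO arrays lay below all WT arrays. The log2 fold change was -0.17 ± 0.054 (SE, limma, adjusted p = 0.0787), with an interval of -0.29 to -0.05. Its second brightest probe set did pass, with 774.1, 829.7 and 739.0 in KO and 898.1, 929.2 and 902.9 in WT, a log2 fold change of -0.22 ± 0.055 (adjusted p = 0.0392). All 6 tested probe sets of Psme4 had lower means in KO, by 0.05 to 0.23 on the log2 scale. The 12 round spermatid markers were lower in the same arrays, with a median of -1.13 to -0.74 in KO and -0.43 to 0.30 in WT against the WT mean. Their summed signal was 2837 to 3041 in KO and 4020 to 4526 in WT, and their part in the Psme4 value was not tested. Actl7a, Catsper1, Sun5 and Tssk2 among them passed the dim limit only through WT.

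The regulatory particle held no called gene. In the base, the 8 genes had log2 fold changes of -0.12 to 0.07 and a median of -0.02 (-0.06 after median centring). Psmc2, an ATPase of the base ring, had signals of 1028.0, 996.0 and 937.5 in KO and 1052.5, 1068.2 and 1097.2 in WT. The groups did not overlap, KO being lower, and its second probe set also separated them (log2 fold change -0.12, adjusted p = 0.144, and -0.18, adjusted p = 0.0608). The ATPase gene Psmc3 had 1238.8, 1127.4 and 1124.4 in KO and 1240.7, 1236.2 and 1204.0 in WT, where only KO replicate 1 reached the WT range. Psmc4, another ATPase, had 1357.4, 1284.3 and 1185.6 in KO and 1193.3, 1196.1 and 1263.0 in WT, with KO arrays on both sides of the WT range. Their adjusted p values were 0.318 and 0.453. The scaffold subunits Psmd1 and Psmd2 had log2 fold changes of -0.01 and -0.04.

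In the lid, the 8 genes had log2 fold changes of -0.15 to 0.14 and a median of -0.01 (-0.06 after median centring). Psmd14, the metalloprotease that cuts the ubiquitin chain off, had 884.8, 853.2 and 861.0 in KO and 811.3, 819.7 and 728.8 in WT. The groups were separate with KO higher, at a log2 fold change of 0.14 and an interval of 0.01 to 0.27 (limma, adjusted p = 0.144). The structural subunit Psmd8 had 1261.8, 1236.9 and 1188.0 in KO and 1301.8, 1333.6 and 1302.3 in WT, and Psmd11, which joins lid and base, had 637.3, 584.6 and 608.0 in KO and 682.1, 641.8 and 656.5 in WT. Both separated the groups in the other direction, by -0.09 (adjusted p = 0.163) and -0.11 (adjusted p = 0.223) on the log2 scale. A dim probe set of Psmd11, singled out after its values were seen, was called lower, with 24.1, 24.3 and 27.0 in KO and 50.2, 37.8 and 45.3 in WT (log2 fold change -0.67, adjusted p = 0.0244). Psmd11 had 6 tested probe sets, whose log2 fold changes ran from -0.67 to 0.12, and the brightest represents the gene. Psmd3, a lid scaffold, had the lowest log2 fold change of the class, -0.15 (adjusted p = 0.292). The ubiquitin receptor Psmd4 had a log2 fold change of 0.03 (-0.09 to 0.14).

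The assembly chaperones, which build the particles and leave them, and the inhibitor did not pass. Psmg4, a chaperone of the alpha ring, had signals of 81.3, 87.1 and 80.3 in KO and 68.2, 77.5 and 74.5 in WT. The KO values lay above the WT values, with a log2 fold change of 0.16 and an interval of -0.09 to 0.41 (limma, adjusted p = 0.369). Psmg1, another chaperone of the alpha ring, had 397.4, 408.3 and 389.1 in KO and 417.0, 425.8 and 403.9 in WT, and Psmg2 had 751.4, 729.1 and 693.6 in KO and 753.9, 751.9 and 714.9 in WT. Both overlapped (adjusted p = 0.558 and 0.740). Among the chaperones of the base, the X-linked Psmd10, known as gankyrin, had 123.2, 128.4 and 154.8 in KO and 121.3, 102.3 and 117.6 in WT. All KO arrays were higher, KO replicate 1 by little, and the log2 fold change of 0.24 had an interval of -0.03 to 0.50 (adjusted p = 0.225). Psmd5 and Psmd9 had log2 fold changes of 0.12 and -0.08, and the inhibitor Psmf1 had -0.09 (-0.33 to 0.15). In the second probe set of Psmf1, nearly as bright, all KO arrays lay below all WT arrays (log2 fold change -0.21, limma, adjusted p = 0.168). Psmf1 had 4 tested probe sets, and 3 had the sign of the brightest. Psmb11 had signals of 0.83 to 4.85 over the 6 arrays and was not tested.

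Among partners of the proteasome outside the Psm names, 3 of 20 tested genes fell and none rose (2.98% of all genes rose and 7.37% fell). At an unadjusted p under 0.05 there were 5 (34.9% of all genes), and the median log2 fold change was 0.00. The counts of 3 and 5 include Ddi1, which passed the dim limit only through WT. The list held 30 genes, and 20 had a probe set with their symbol alone. Ddi1, a testis gene for a shuttle with a protease-like domain, had signals of 4.42, 3.83 and 22.9 in KO and 96.6, 41.2 and 120.4 in WT. All KO arrays were lower, with a log2 fold change of -2.48 ± 0.422 (SE). Its size depends on the pseudocount because KO lay near or under the dim limit. Ddi1 passed that limit only through WT, with means of 10.4 in KO and 86.1 in WT, so no p-value is given. Its call was lost without WT replicate 1. Ube3c, a ubiquitin ligase that binds the proteasome, had 710.2, 754.8 and 705.2 in KO and 867.1, 851.1 and 816.6 in WT. Its level fell in KO, with a log2 fold change of -0.22 and an adjusted p of 0.0336, but its second brightest probe set gave -0.02 with an adjusted p of 0.845.

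Akirin2, which brings proteasomes into the nucleus, had 804.0, 768.1 and 724.2 in KO and 886.8, 854.3 and 914.5 in WT. It fell in KO, with a log2 fold change of -0.21 (limma, adjusted p = 0.0496), whereas the mean over its probe sets gave -0.04 with an adjusted p of 0.747. The calls of Ube3c and Akirin2 were lost without KO replicate 3, WT replicate 1, WT replicate 2 or WT replicate 3, that of Ube3c also without KO replicate 1 and that of Akirin2 without KO replicate 2 (adjusted p 0.0549 to 0.161). Nfe2l1, the transcription factor that raises proteasome genes, had 501.9, 547.3 and 546.8 in KO and 492.6, 474.0 and 490.7 in WT. Each KO value exceeded each WT value, with a log2 fold change of 0.13 and an interval of -0.01 to 0.27 (adjusted p = 0.202). Ubqln2, an X-linked ubiquitin shuttle, had 866.5, 812.1 and 831.2 in KO and 741.3, 690.4 and 764.1 in WT, likewise with no overlap (adjusted p = 0.0653). The core assembly factor Pomp had a log2 fold change of 0.05 and the small lid subunit Sem1 one of -0.03.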

How the data were processed

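Per the submitters' processing notes the deposited values were made with MAS5 (no version given), which gives each probe set a linear signal intensity. The authors scaled each array by a factor, seen in the equal trimmed means. The table lists 45101 probe sets. Control probe sets (64) were left out, and 34945 of the others have 1 symbol in the platform annotation, 932 several and 9160 none here. The 47 proteasome genes and the gene lists were chosen with earlier results of these data known.

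Signals were transformed to log2(signal + 7) so folds of dim genes are understated. The 27022 probe sets with a mean at or above the 40th percentile (20.5) were fitted with limma 3.58.1 in R 4.3.3 (lmFit, eBayes with trend, two-sided, no covariate, 3 arrays per group) and adjusted with Benjamini-Hochberg. The fit was tested on simulated data. Intervals are 95% intervals of that fit, and SE is its moderated standard error. The number of arrays limits the precision. Named with their values were called genes, Psma8, the immune and activator genes, the 3 of lowest p in each class of 4 or more, and from the partner and MHC lists the called and the 2 of lowest p; other names were added after their values were seen. Within-array ratios were tested by exact permutation, with no p-value given for that of Psmb8 to Psmb5. Motif windows are from RefSeq, GRCm38.p6, and Psm symbols of all 47 genes matched it. Alternatives were scaling, pseudocount, dim filter, variance model, array weights, replicate block, probe set choice and leaving out each array.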

Additional observations from a re-analysis of the deposited data

How the results depend on the processing

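The number of proteasome genes that rose (2) was 1 after quantile normalization, median centring, a pseudocount of 39 or averaging all probe sets of a gene, 0 without the dim filter, without the trend or by the second brightest probe set (22 genes), 5 with array weights and 0 to 2 with 1 array left out. The 5 with array weights include Psmb8, which passed the dim limit only through KO. The number that fell (0) was 2 with array weights and 1 by the second brightest probe set. Rising partners (0) numbered 1 after quantile normalization and 3 with array weights, and falling partners (3) 1 without the dim filter or with averaged probe sets, 0 without the trend or by the second brightest probe set, and 0 to 2 with 1 array left out. Rising MHC class I genes (0) numbered 1 with array weights and 1 with averaged probe sets.

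With the replicate block 3 proteasome genes rose and 1 fell (Psma7, Psmb10 and Psme1, and Psmb7), 1 partner rose and 2 MHC class I genes rose, and genes called overall went from 1342 to 2836. Same-numbered arrays correlated by 0.079, 0.46 and 0.27 in their deviations from the group means. Each KO array correlated best with the WT array of its number, though KO replicate 1 only weakly. WT replicate 1 correlated best with KO replicate 3 (0.11). The submitters describe 3 pairs, but no label says that the numbers mark them, so the main fit did not take the numbers as pairs. 

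Class medians moved as follows. Median centring gave -0.0084 for alpha, -0.027 for beta, -0.062 for base, -0.060 for lid, -0.050 for core chaperones and -0.024 for all proteasome genes. Quantile normalization gave 0.064 for alpha, a pseudocount of 39 gave 0.21 for the immune subunits, and array weights gave 0.0041 for base and -0.045 for core chaperones. Averaged probe sets gave 0.069 for alpha, 0.23 for immune subunits, -0.050 for lid, 0.15 for Psmd4, 0.039 for core chaperones and 0.039 for all. The second brightest probe sets gave 0.077 for alpha, 0.15 for beta, 0.054 for base, 0.0059 for base chaperones and 0.087 for core chaperones. With 1 array left out the medians ranged from -0.0062 to 0.030 for beta, -0.031 to 0.075 for activators and -0.0016 to 0.029 for all.

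Signs turned for values near 0. Psme3 went to -0.014 after median centring and ranged from -0.031 to 0.075 with 1 array left out, Psmb3 to -0.0042 with array weights, Psmb2 to -0.018 after median centring, and Psmg2 ranged from -0.057 to 0.00032 with 1 array left out. The ratio of Psmb8 to Psmb5 turned to -0.065 by the second brightest probe set, which for Psmb8 lay below the dim limit. The cause of these shifts was not tested. The dim limit bears on Psmb8, whose WT signals all lay below it, and on Psmb9, with signals on both sides of it.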
